A study of Mus musculus with 6 samples.

Results

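The genes described here are 38 mouse genes of the hypoxia-inducible factor (HIF) response and of glycolysis, measured by RNA-seq in J774 macrophages with and without knockdown of NCOA4. They were listed by name for their known roles, with earlier results of these data known. They comprise 3 regulators of HIF, 3 sugar and lactate transporters, 16 enzymes of glycolysis and a pair of kinases that set phosphofructokinase activity. The rest were listed as classic HIF-induced genes of mitochondria, glycogen storage and other functions. All 38 were found among the 55487 gene identifiers, and 37 of them reached a mean of 0.5 TPM and were tested together with the other expressed genes, 13829 in all. The exception was Adm (adrenomedullin, a vasodilator peptide), with 1 to 4 reads per library and a mean of 0.251 TPM, which was not tested. J774 is a mouse macrophage cell line, so all libraries share 1 genetic background. Cells received either control siRNA, a non-targeting small interfering RNA, or NCOA4 siRNA, delivered in liposomes, and 3 libraries labelled as biological replicates were made from each group. The knockdown was transient and partial, and no other treatment is labelled for either group. TPM is the abundance of a transcript after correction for its length, set to a total of 1000000 in each library, so that levels of different genes within a library can be set side by side.

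HIF is a transcription factor of an oxygen-regulated subunit (HIF-1α, from Hif1a) and a constant subunit (ARNT). In oxygenated cells, prolyl hydroxylases that need iron, oxygen and 2-oxoglutarate mark HIF-1α for the VHL ubiquitin ligase, and when they are inactive HIF accumulates and binds the hypoxia response element, whose core reads ACGTG or GCGTG, near its target genes. These targets include nearly every step of glycolysis, the glucose importer, the lactate exporter, brakes on mitochondrial pyruvate use and inducers of mitophagy. In macrophages, HIF-1α and glycolysis are known for their part in inflammatory activation. NCOA4 is the receptor that takes ferritin to the lysosome for release of its iron. The libraries measure RNA only, so HIF-1α protein, its hydroxylation and glycolytic flux are outside these data.

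The 6 libraries held 15502131 to 18282107 reads on genes whose reads could be rebuilt from TPM, so that for a 2 kb gene each read added 0.0825 to 0.0959 TPM. Ncoa4, the siRNA target, stood at 19.7, 22.5 and 22.4 TPM in control siRNA replicates 1 to 3 and at 9.63, 8.60 and 8.88 TPM in NCOA4 siRNA replicates 1 to 3 (log2 fold change -1.21, SE 0.0767, limma adjusted p = 0.00127). The Ncoa4 row held 43.4% of the summed TPM of Ncoa4 and Gm6768, a processed pseudogene that shares part of its sequence. This sum was 50.1 ± 0.958 TPM in control and 20.5 ± 2.33 TPM in NCOA4 siRNA libraries (SD, n = 3 each). Control replicate 1 stood apart from the other libraries. The median absolute log2 difference per gene was 0.136 and 0.151 between it and the other control libraries, 0.108 between those 2, and 0.0817 to 0.0867 between NCOA4 siRNA libraries. Genes of the mitochondrial genome made up 12.9% of its TPM against 9.36% to 10.2% in the other libraries. All 8 macrophage markers examined exceeded 1 TPM, among them Lyz2 (mean 5147 TPM), Cd68 (mean 1701 TPM) and Csf1r (mean 382 TPM), while no T cell, B cell, fibroblast, epithelial or erythroid marker did. The summed level of the macrophage markers was 7491 to 7608 TPM in control libraries and 7946 to 8085 TPM in NCOA4 siRNA libraries. The largest part of this sum was Lyz2, at 4683 to 5067 TPM in control and 5364 to 5466 TPM in NCOA4 siRNA libraries. Lyz2, Csf1r, Adgre1, Itgam, Ptprc and Fcgr1 were higher in every knockdown library than in every control, as were 16.6% of all tested genes. Spi1 overlapped, and Cd68 was lower (2060, 1709 and 1726 TPM in control and 1591, 1612 and 1507 TPM in NCOA4 siRNA libraries). The part of these marker levels in the results was not tested. These are bulk libraries, in which fewer cells with a transcript and less of it per cell cannot be told apart.

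Promoter windows of 6 members are shown because they span the pattern described below: the glucose importer and the phosphofructokinase with the lowest adjusted p (Slc2a1, Pfkp), a HIF-induced mitochondrial gene rich in matches (Fam162a), an enzyme that decreased without any match (Tpi1), the member that increased (Eno3), and a classic HIF target that was not called (Ldha). Each window runs from 250 bases before to 50 bases after the annotated start (RefSeq, GRCm38.p6), is written 5′ to 3′ on the gene's strand, and has every ACGTG or GCGTG on either strand in capitals. Where the palindrome CACGTG occurs, it holds a match on each strand.
Slc2a1, chr4:119108495-119108794, plus strand: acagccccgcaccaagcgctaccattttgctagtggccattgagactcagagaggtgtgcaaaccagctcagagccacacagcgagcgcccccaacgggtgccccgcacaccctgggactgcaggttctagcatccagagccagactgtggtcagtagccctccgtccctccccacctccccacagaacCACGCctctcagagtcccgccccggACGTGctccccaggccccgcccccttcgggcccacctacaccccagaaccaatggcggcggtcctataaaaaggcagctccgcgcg
Pfkp, chr13:6648722-6649021, minus strand: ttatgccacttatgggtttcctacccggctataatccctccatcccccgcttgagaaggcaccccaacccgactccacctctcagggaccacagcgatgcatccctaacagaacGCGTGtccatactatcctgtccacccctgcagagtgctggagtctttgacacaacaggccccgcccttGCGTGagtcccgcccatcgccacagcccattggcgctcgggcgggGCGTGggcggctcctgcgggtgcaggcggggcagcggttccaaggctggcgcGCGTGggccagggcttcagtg
Fam162a, chr16:36071512-36071811, minus strand: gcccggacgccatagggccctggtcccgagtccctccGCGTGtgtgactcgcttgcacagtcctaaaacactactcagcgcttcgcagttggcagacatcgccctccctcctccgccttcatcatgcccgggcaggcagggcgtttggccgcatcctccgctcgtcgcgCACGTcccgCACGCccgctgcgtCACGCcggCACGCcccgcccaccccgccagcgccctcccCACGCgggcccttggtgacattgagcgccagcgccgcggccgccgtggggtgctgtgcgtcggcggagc
Tpi1, chr6:124814109-124814408, minus strand: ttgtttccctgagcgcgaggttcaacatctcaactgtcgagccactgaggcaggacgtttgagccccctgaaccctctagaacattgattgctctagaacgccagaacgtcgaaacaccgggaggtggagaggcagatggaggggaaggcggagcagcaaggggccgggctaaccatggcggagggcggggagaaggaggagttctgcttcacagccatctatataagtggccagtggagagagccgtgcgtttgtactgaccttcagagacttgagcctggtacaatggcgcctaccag
Eno3, chr11:70656926-70657225, plus strand: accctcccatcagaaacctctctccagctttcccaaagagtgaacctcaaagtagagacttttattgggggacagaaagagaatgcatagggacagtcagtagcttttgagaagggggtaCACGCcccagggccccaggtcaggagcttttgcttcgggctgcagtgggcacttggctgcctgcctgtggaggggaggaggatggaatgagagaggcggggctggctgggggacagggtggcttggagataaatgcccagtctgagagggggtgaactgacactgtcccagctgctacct
Ldha, chr7:46845554-46845853, plus strand: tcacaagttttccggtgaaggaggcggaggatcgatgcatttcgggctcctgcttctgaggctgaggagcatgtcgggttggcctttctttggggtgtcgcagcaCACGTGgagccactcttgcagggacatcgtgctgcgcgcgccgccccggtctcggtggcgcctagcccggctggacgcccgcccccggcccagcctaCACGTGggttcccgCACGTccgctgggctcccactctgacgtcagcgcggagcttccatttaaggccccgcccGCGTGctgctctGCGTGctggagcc

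These windows held 2 matches for Slc2a1 (61 and 36 bases before the start), 4 for Pfkp, 6 for Fam162a, 0 for Tpi1, 1 for Eno3 (130 bases before the start) and 7 for Ldha. Another Ldha window, not shown, held 2. Windows were found for 35 members, and 29 of these (82.9%) held at least 1 match, beside 46.7% of all 27025 genes with a window and 68.1% of the 9093 tested genes with a window. A gene was counted if any of its windows held a match, and some genes have several windows. Taken per window, 36 of 48 member windows (75%) held a match, beside 43.8% of all 32851 windows. At least 2 matches were present in 62.9% of the members and in 39.2% of the tested genes. Among the members with a window, a match was found for 8 of the 12 that decreased (66.7%) and for 19 of the 21 that were tested and not called (90.5%). A match is a run of letters, not a measured binding site.

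With NCOA4 siRNA, 13 of the 37 tested members fell and 1 rose at an adjusted p under 0.05 (limma, Benjamini-Hochberg over all tested genes). The members that fell were 35.1% of those tested, beside 2.31% of all tested genes, and the member that rose was 2.7%, beside 3.11% of all tested genes. At an unadjusted p under 0.05, 23 members were lower, beside 8.84% of all tested genes, and 3 were higher, beside 12.7% (limma). The members that fell were Slc2a1, Gys1, Pfkp, Ndrg1, Hk1, Fam162a, Hif1a, Bnip3, Gbe1, Pkm, Tpi1, Eno2 and Eno1, and the member that rose was Eno3. The decreases were small. They lay between 70.4% and 86.7% of the control mean, and of the members only Eno3 also passed the 1.5-fold threshold, which 1.18% of all tested genes passed in either direction together with the adjusted p. The log2 fold change was below 0 for 28 members and above 0 for 9, with a median of -0.20 over the members and 0.03 over all tested genes. In 23 members (62.2%) all 3 knockdown values were below all 3 control values, beside 11.8% of all tested genes, and in 4 members (Eno3, Aldoc, Arnt and Pfkfb3) all 3 knockdown values were above, beside 16.6% of all tested genes. For each of the 14 called members the groups did not overlap, which gives p = 0.1 in an exact two-sided permutation test, the smallest p that 3 libraries against 3 allow. As these members are well expressed, the background was also taken over the 8516 genes with a mean of at least 10 TPM, of which 3.33% fell and 3.84% rose.

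The median log2 difference of the tested members from their control mean was -0.19, -0.19 and -0.21 in NCOA4 siRNA replicates 1 to 3, with 28, 29 and 28 members below the control mean. In control replicates 1 to 3 it was -0.05, 0.02 and 0.04. Over all tested genes the same medians were between -0.03 and 0.04 in the 6 libraries. The number of called members depended on the libraries used. Without control replicate 1, the library that stood apart, 20 members were called (19 lower and 1 higher), and 12 of these were among the 14. Without control replicate 2 or 3, 10 and 7 members were called, and without NCOA4 siRNA replicate 1, 2 or 3, 4, 4 and 5 members. Calls over all tested genes, 430 higher and 320 lower with all libraries, were 437 higher and 370 lower without control replicate 1. They dropped when any other library was left out. They were 299 higher and 196 lower without control replicate 2, and 219 and 161 without control replicate 3. Without NCOA4 siRNA replicate 1, 2 or 3 they were 82 and 74, 77 and 50, and 108 and 74. Slc2a1, Pfkp, Ndrg1 and Gys1 were called in each of the 16 alternative settings, which changed the pseudocount, the filter, the scaling or the test or left out a library. Beside the losses given with each gene below, the calls of Hif1a, Bnip3, Gbe1, Pkm and Eno1 were lost both without a filter and without a trend, that of Tpi1 without a filter, and those of Eno2 and Fam162a without a trend. In these cases the log2 fold changes stayed below 0. With each library centred on its median, 21 members fell and 1 rose, while the calls over all tested genes went from 430 higher and 320 lower to 348 higher and 622 lower.

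**Figure D1:**
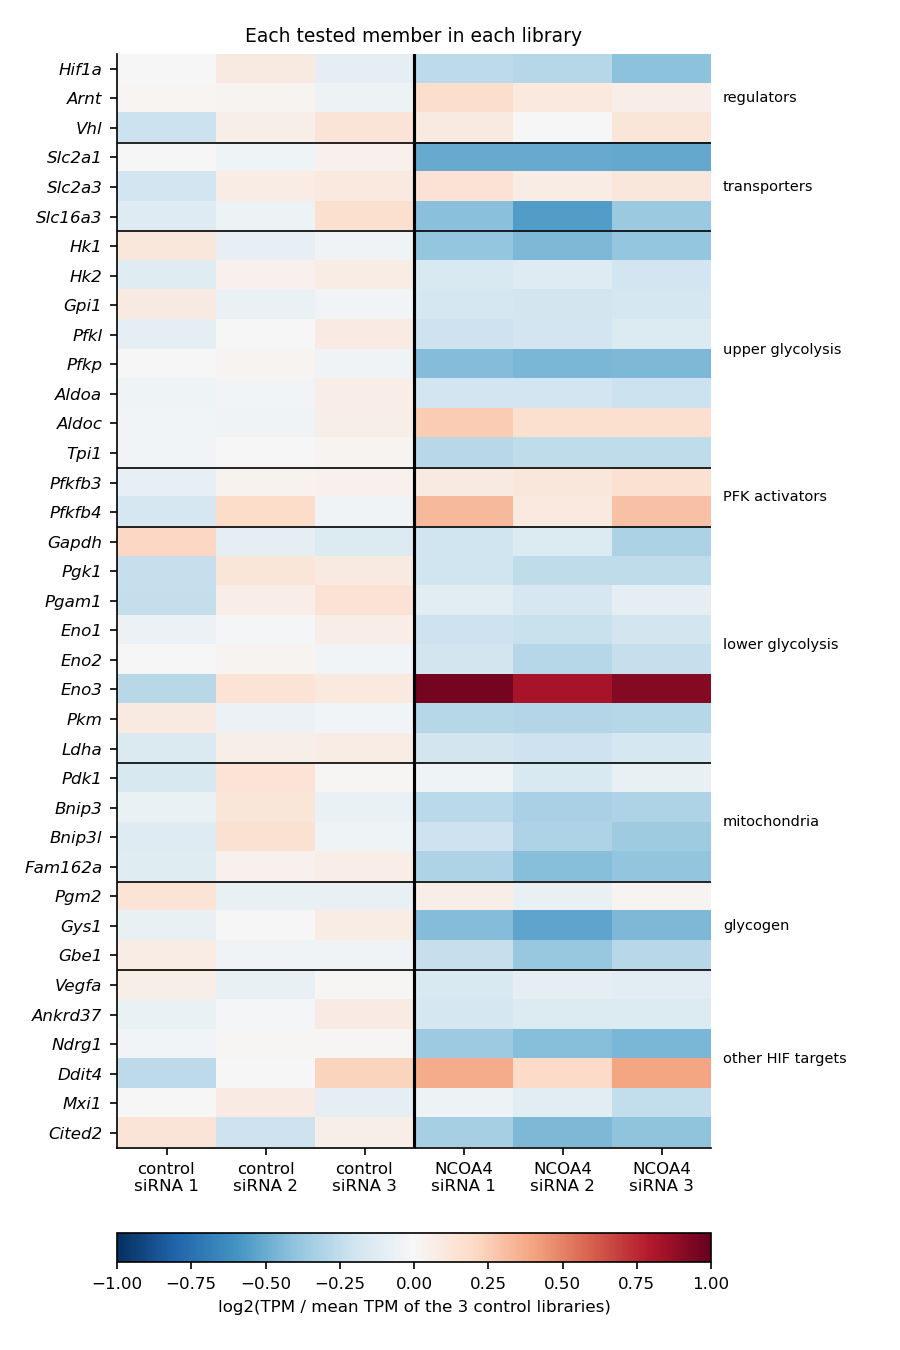
Heat map of log2(TPM divided by the mean TPM of the 3 control libraries) for the 37 tested members (rows, grouped by role) in the 6 libraries (columns), from blue (lower) through white (the control mean) to red (higher). The NCOA4 siRNA columns are blue for most rows, with 28 or 29 members below the control mean in each, and the Eno3 row is the only dark red one.

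**Figure D2:**
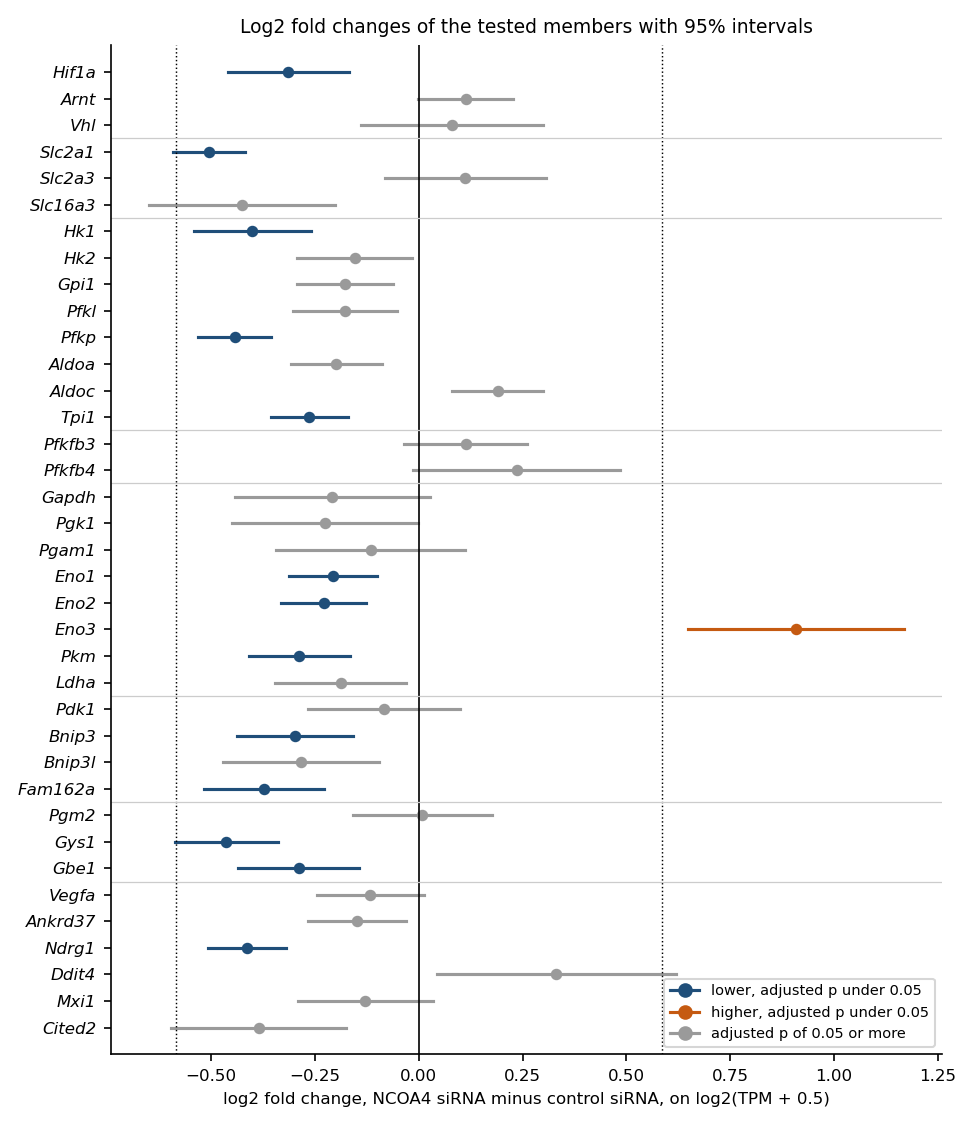
Log2 fold change of each tested member, NCOA4 siRNA minus control siRNA, on log2(TPM + 0.5), with points at the estimate, bars for the 95% confidence interval and dotted lines at a 1.5-fold change in either direction. The 13 blue points fell and the orange point (Eno3, 0.91) rose at a limma adjusted p under 0.05, and the grey points were not called.

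Among the regulators, the RNA of the oxygen-regulated subunit itself was lower. Hif1a was 73.4, 78.2 and 69.3 TPM in control siRNA replicates 1 to 3 and 61.3, 60.6 and 55.5 TPM in NCOA4 siRNA replicates 1 to 3. All 3 knockdown libraries were below all 3 controls, by a margin of about the spread within the control group. The mean changed from 73.6 ± 4.45 to 59.1 ± 3.17 TPM (SD, n = 3 each), with a log2 difference of -0.31 (SE 0.0616, limma adjusted p = 0.0361). This call was lost when any single library was left out, and adjusted p ran from 0.00217 to 0.126 over the 16 alternatives (limma). Arnt, its constant partner, was 35.8 ± 1.07 and 38.8 ± 1.45 TPM (SD, n = 3 each) with a log2 fold change of 0.11 (95% interval -0.00 to 0.23, limma adjusted p = 0.24). Vhl, the substrate receptor of the ligase that removes HIF-1α, was 42.2 ± 5.22 and 44.4 ± 1.89 TPM, with a log2 fold change of 0.08 (95% interval -0.14 to 0.30, limma adjusted p = 0.668) that turned to -0.02 without control replicate 1. In a list of 11 other oxygen-sensing genes and HIF subunits, 8 were tested, 1 fell and 0 rose, with a median log2 fold change of 0.06. The gene that fell was Egln1, the main HIF prolyl hydroxylase, from 125 ± 6.23 to 103 ± 1.29 TPM (-0.27 on the log2 scale, limma adjusted p = 0.023), a call kept in 9 of the 16 alternatives and lost without control replicate 2 or 3 or any 1 of the NCOA4 siRNA replicates. Epas1, which encodes HIF-2α, was 33.7 ± 0.729 and 35.2 ± 1.28 TPM (limma adjusted p = 0.515), and Egln3 and Hif3a had means under 0.05 TPM.

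Slc2a1, encoding the glucose importer GLUT1, had the lowest log2 fold change of the tested members. It stood at 401, 387 and 411 TPM in control siRNA replicates 1 to 3 and at 281, 282 and 281 TPM in NCOA4 siRNA replicates 1 to 3. The groups were far apart relative to their spread, and the knockdown libraries were nearly identical. The NCOA4 siRNA mean was 70.4% of control (399.9 ± 12 to 282 ± 0.903 TPM, SD, n = 3 each), and the log2 fold change was -0.51 (SE 0.0368, limma adjusted p = 0.00186). The other glucose importer of the set, Slc2a3 (GLUT3), was 29.5 ± 3.19 and 31.8 ± 0.749 TPM, a log2 fold change of 0.11 (95% interval -0.08 to 0.31, limma adjusted p = 0.478). The Slc2a3/Slc2a1 TPM ratio was 0.0644, 0.0802 and 0.0769 in control and 0.116, 0.110 and 0.113 in NCOA4 siRNA libraries, so that the ratio was higher in every knockdown library (exact two-sided permutation test, p = 0.1, adjusted p = 0.14 over 7 ratios). Slc16a3, encoding the lactate exporter MCT4, was low at 10.9, 11.5 and 13.3 TPM in control and 8.90, 8.08 and 9.19 TPM in NCOA4 siRNA libraries. Its groups did not overlap, and its log2 fold change of -0.43 (SE 0.0945) just missed the threshold (limma adjusted p = 0.0519). Of 11 other hexose and monocarboxylate transporters, 6 were tested, 1 fell and 0 rose, with a median log2 fold change of 0.11. The gene that fell was Bsg (basigin, the chaperone of MCT1 and MCT4), from 418 ± 3.34 to 375 ± 5.23 TPM (log2 fold change -0.15, limma adjusted p = 0.047). This call was kept in 7 of the 16 alternatives, with limma adjusted p up to 0.198, and was lost without control replicate 2 or 3 or any 1 of the NCOA4 siRNA replicates.

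**Figure D3:**
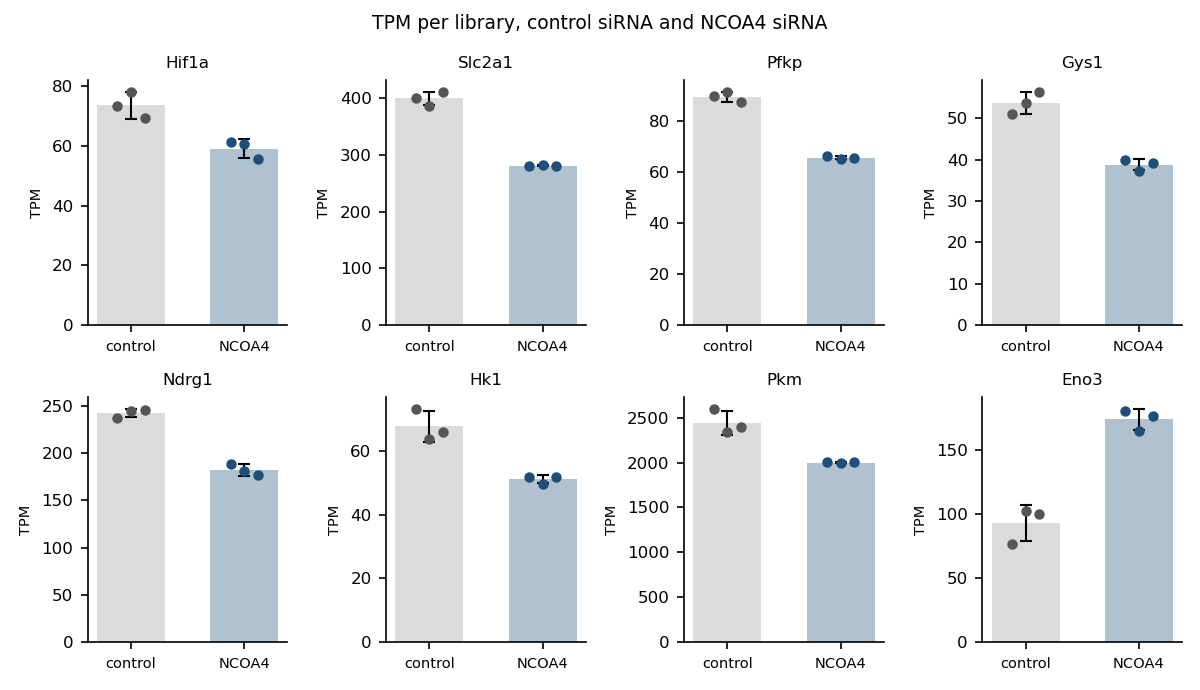
TPM of 8 members in each library, with bars at the group mean, error bars of 1 SD (n = 3 each) and a point per library for control siRNA (grey) and NCOA4 siRNA (blue). The knockdown points of Hif1a, Slc2a1, Pfkp, Gys1, Ndrg1, Hk1 and Pkm lie below all control points, and those of Eno3 lie above them.

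In upper glycolysis, from glucose to triose phosphate, 3 of 8 enzymes fell (37.5%, beside 2.31% of all tested genes) and 0 rose. The median log2 fold change was -0.19. All 8 had groups that did not overlap, beside 28.4% of all tested genes. In 7 the knockdown was lower (87.5%, beside 11.8%), and in Aldoc it was higher (beside 16.6%). Pfkp, the platelet-type isozyme of the committing phosphofructokinase step, stood at 89.5, 91.3 and 87.3 TPM in control and 66.2, 65.2 and 65.4 TPM in NCOA4 siRNA libraries. The gap between the groups was several times the spread within either. The mean was 73.4% of control, with a log2 fold change of -0.44 (SE 0.0368, limma adjusted p = 0.00234). Exons of the opposite-strand gene Pitrm1 (68.4 TPM in control and 67.3 TPM in NCOA4 siRNA libraries) covered 5.58% of its exon bases. Pfkl, the liver-type isozyme and the more abundant of the pair, was 236 ± 14.5 and 209 ± 5.59 TPM and not called (-0.18 on the log2 scale, limma adjusted p = 0.116). The Pfkl/Pfkp ratio was 2.65 ± 0.201 in control and 3.18 ± 0.0999 in NCOA4 siRNA libraries (SD, n = 3 each, exact two-sided permutation test, p = 0.1, adjusted p = 0.14 over 7 ratios).

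Hk1, a hexokinase that traps glucose in the cell, stood at 73, 63.7 and 66 TPM in control and 51.8, 49.6 and 51.6 TPM in NCOA4 siRNA libraries. Control replicate 1 was the highest, and every knockdown library was well below every control. Its log2 fold change was -0.40 (SE 0.0589, limma adjusted p = 0.0154), a call that was lost without any 1 of the NCOA4 siRNA replicates. Hk2, the HIF-inducible hexokinase, was 112 ± 7.97 and 100.2 ± 2.11 TPM and not called (-0.15 on the log2 scale, limma adjusted p = 0.186). Tpi1 (triose phosphate isomerase) was 2015, 2048 and 2089 TPM in control and 1689, 1718 and 1718 TPM in NCOA4 siRNA libraries. Its libraries agreed closely within each group and the groups were well separated. The log2 fold change was -0.26 (SE 0.0392, limma adjusted p = 0.0162), and this call was likewise lost without any 1 of the NCOA4 siRNA replicates. The remaining enzymes of this stretch were not called. They were Gpi1 at -0.18 (limma adjusted p = 0.091), Aldoa at -0.20 (limma adjusted p = 0.0596) and Aldoc at 0.19 (limma adjusted p = 0.0671) on the log2 scale. Aldoa had the highest mean of the members' own rows, at 2534 ± 101 TPM in control (SD, n = 3), and another identifier that also carries its name, at 3.91 TPM in control, was not counted. The Aldoc/Aldoa ratio was 0.0344 ± 0.000301 in control and 0.0451 ± 0.00151 in NCOA4 siRNA libraries (SD, n = 3 each, exact two-sided permutation test, p = 0.1, adjusted p = 0.14 over 7 ratios). Pfkfb3 and Pfkfb4, kinases that make the allosteric activator of phosphofructokinase, were low (11.3 and 13.8 TPM in control) and not called, at 0.11 (limma adjusted p = 0.35) and 0.24 (limma adjusted p = 0.255) on the log2 scale.

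In lower glycolysis, from triose phosphate to lactate, 3 of 8 genes fell (37.5%, beside 2.31% of all tested genes). Eno3 rose (12.5%, beside 3.11%), and the median log2 fold change was -0.21. Pkm, whose pyruvate kinase makes the last ATP of the pathway, was 2596, 2343 and 2392 TPM in control and 2001, 1993 and 2005 TPM in NCOA4 siRNA libraries. The knockdown libraries were nearly identical and all below the controls, of which replicate 1 was the highest. The log2 fold change was -0.29 (SE 0.0513, limma adjusted p = 0.0264), and the call was lost without control replicate 3 or any 1 of the NCOA4 siRNA replicates. The exons of Pkm shared 15.3% of their bases with Gm49759 on the same strand (38 TPM in control and 35.1 TPM in NCOA4 siRNA libraries). Ldha, which turns pyruvate into lactate, was 1908 ± 161 and 1671 ± 18.4 TPM (-0.19 on the log2 scale, limma adjusted p = 0.168), and Pgk1 and Pgam1 were at -0.23 (limma adjusted p = 0.231) and -0.12 (limma adjusted p = 0.535). In Ldha, Pgk1 and Pgam1 control replicate 1 was the lowest control library, at 1722, 1565 and 451 TPM. Without it these 3 genes were called as lower too, together with Aldoa, Gpi1, Hk2, Pfkl and Slc16a3.

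The enolases, which make phosphoenolpyruvate, moved in opposite directions. Eno3, the isozyme known from skeletal muscle, was 76.7, 102 and 99.7 TPM in control and 180.2, 165 and 176 TPM in NCOA4 siRNA libraries. Every knockdown library was well above the highest control, and control replicate 1 was the lowest of all. Its mean went from 93 ± 14.1 to 174 ± 8.04 TPM (SD, n = 3 each), or by a log2 fold change of 0.91 (SE 0.11, limma adjusted p = 0.00815). The call was kept in 14 of the 16 alternatives and lost without NCOA4 siRNA replicate 1 or 2, with the highest adjusted p at 0.0552 (limma). Eno1, the ubiquitous isozyme, was 1054, 1082 and 1149 TPM in control and 947, 939 and 962 TPM in NCOA4 siRNA libraries, and Eno2, the isozyme known from neurons, was 67, 68.3 and 65.8 and 59.1, 55 and 57.3 TPM. Both were lower in all knockdown libraries, by a small margin. Their log2 fold changes were -0.21 (SE 0.0447, limma adjusted p = 0.0491) and -0.23 (SE 0.0429, limma adjusted p = 0.0312), and both calls were lost without control replicate 2 or 3 or any 1 of the NCOA4 siRNA replicates. The order of the enolase levels stayed Eno1, Eno3, Eno2, while the Eno3/Eno1 ratio went from 0.0848 ± 0.0111 to 0.183 ± 0.00740 (SD, n = 3 each, exact two-sided permutation test, p = 0.1, adjusted p = 0.14 over 7 ratios). The Eno2/Eno1 ratio was 0.0613 ± 0.00351 and 0.0602 ± 0.00193 (exact two-sided permutation test, p = 0.8). Both ratios, and the order of levels, use the Eno1 row alone. That row held 36.9% of the summed TPM of Eno1 and the genes that share its sequence, which are described below. Of 7 skeletal muscle markers only Mylpf exceeded 1 TPM (mean 1.79), Ckm was at 0.329 TPM, Myh1 and Myog were at 0, and the 7 summed to 2.23 to 2.71 TPM in control and 2.83 to 3.08 TPM in NCOA4 siRNA libraries. The exons of Eno3 overlapped no other annotated gene and shared no run of 50 bases with another gene.

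Gapdh, the usual reference gene, needs its copies to be read. Its own row held only 96.4, 78 and 75.6 TPM in control and 72.8, 75.7 and 66.8 TPM in NCOA4 siRNA libraries. The groups overlapped, and the log2 fold change was -0.21 (95% interval -0.44 to 0.03, limma adjusted p = 0.282). A total of 87 other annotated genes, 85 of them processed pseudogenes, shared at least 100 runs of 50 bases with Gapdh, and the Gapdh row was 1.39% of the TPM of this family. Gm13394 alone held a mean of 4739 TPM and Gm5559 held 660 TPM. The sum of Gapdh and its copies was 6712, 5529 and 5883 TPM in control and 5063, 5250 and 5069 TPM in NCOA4 siRNA libraries. Summed in this way, the knockdown libraries lay below all controls, with a log2 ratio of the means of -0.24. Eno1 had 3 copies, led by Eno1b (mean 921 TPM) and Gm4735 (mean 820 TPM), and made up 36.9% of that family. The Eno1 family summed to 2899 ± 288 TPM in control and 2647 ± 24.8 TPM in NCOA4 siRNA libraries (SD, n = 3 each). The groups of this sum overlapped, unlike those of the Eno1 row, with a log2 ratio of the means of -0.13. Every other member with such copies held at least 84.1% of its family's TPM. Some of them shared as much sequence as Gapdh and Eno1, in which 24.7% and 26% of runs of 50 bases occurred in other genes. This share was 53.9% for Pgk1, 36.2% for Pgam1 and 25.8% for Pkm. How reads that match several places were counted is not given in the sources used here.

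**Figure D4:**
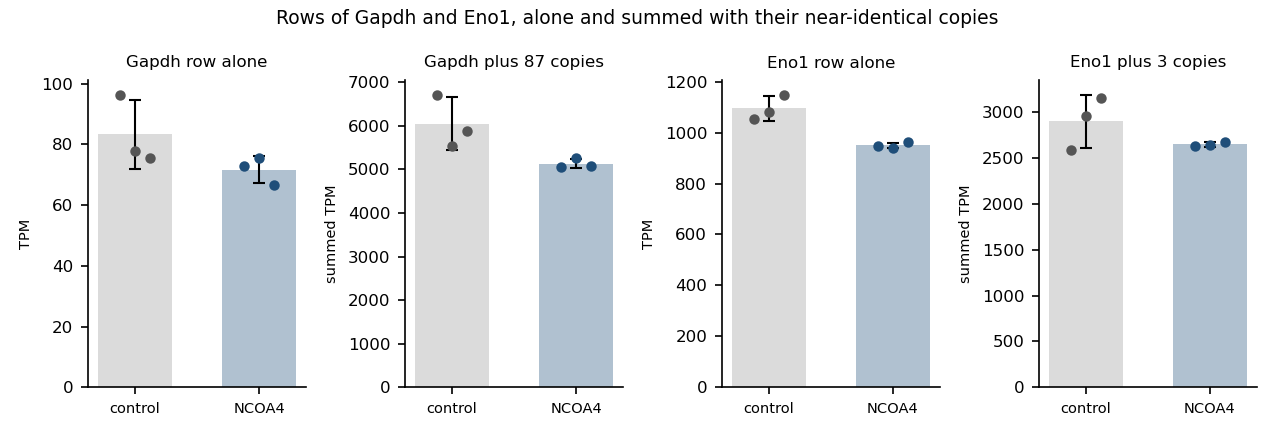
TPM of Gapdh and Eno1 as listed and summed with the genes that share their sequence (87 for Gapdh, 3 for Eno1), with bars at the mean, error bars of 1 SD (n = 3 each) and a point per library. The Gapdh row is a small part of its family sum, and the Eno1 groups are separate in the row but overlap in the sum.

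Summed over the 16 enzymes of glycolysis in the set, the level was 13305, 13904 and 14268 TPM in control and 11988, 11872 and 11942 TPM in NCOA4 siRNA libraries. All knockdown libraries were below all controls, and their mean was 86.3% of the control mean, or 1.19% of all TPM after 1.38% in control. Without Gapdh and Eno1, the same sum stood at 86.3% of control. The Pearson correlation over the 37 tested members between log2 mean TPM and log2 fold change was -0.189, given as a description across genes of the same libraries.

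**Figure D5:**
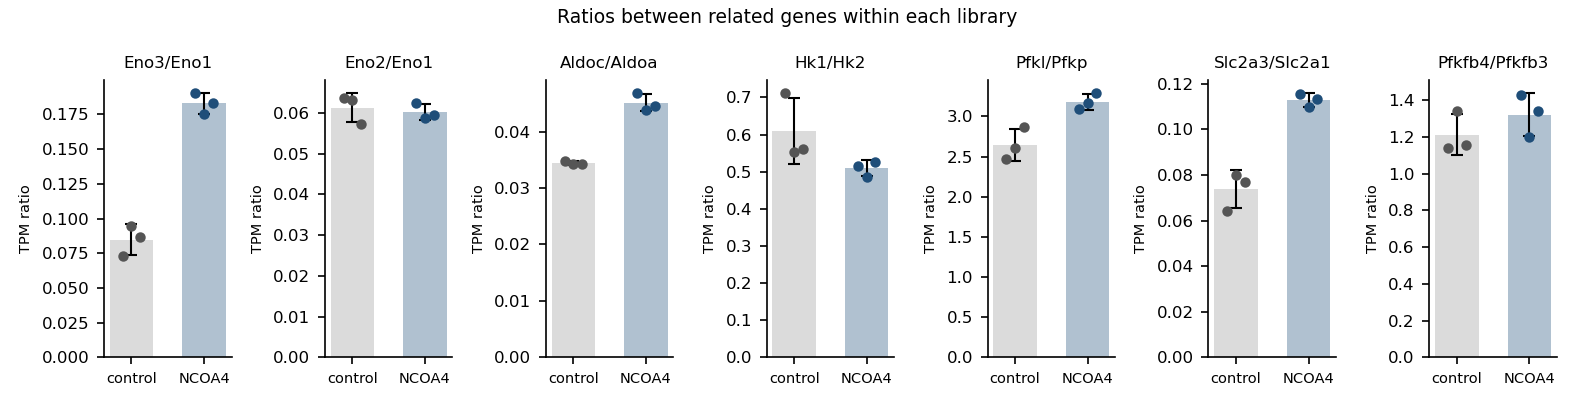
TPM ratios between related members within each library for control siRNA (grey) and NCOA4 siRNA (blue), with bars at the mean, error bars of 1 SD (n = 3 each) and a point per library. The groups are separate for Eno3/Eno1, Aldoc/Aldoa, Pfkl/Pfkp and Slc2a3/Slc2a1 (higher with NCOA4 siRNA) and for Hk1/Hk2 (lower), and overlap for Eno2/Eno1 and Pfkfb4/Pfkfb3. Eno1 is taken as its own row, without its copies.

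Of the 7 ratios between related members, 5 had groups that did not overlap. Each ratio is formed from member rows described above, so this count is no separate result. Among single tested genes, 28.4% had groups that did not overlap, and no such share was taken over ratios of other genes. Beside the ratios given above, Hk1/Hk2 was 0.609 ± 0.0891 in control and 0.509 ± 0.0217 in NCOA4 siRNA libraries (SD, n = 3 each, exact two-sided permutation test, p = 0.1, adjusted p = 0.14 over 7 ratios). The log2 difference of this ratio was -0.25, and -0.13 without control replicate 1. Pfkfb4/Pfkfb3 was 1.21 ± 0.111 and 1.32 ± 0.116 (SD, n = 3 each), with overlapping groups (exact two-sided permutation test, p = 0.3, adjusted p = 0.35 over 7 ratios). With 3 libraries against 3, no ratio could reach a p below 0.1.

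Of the 4 HIF-induced mitochondrial genes, 2 fell (50%, beside 2.31% of all tested genes) and 0 rose. The median log2 fold change was -0.29. Fam162a, a HIF-induced mitochondrial protein linked to cell death, was 378, 424 and 430.1 TPM in control and 331, 305 and 313 TPM in NCOA4 siRNA libraries. Every knockdown library was below every control, with control replicate 1 the nearest. The log2 fold change was -0.37 (SE 0.0608, limma adjusted p = 0.0209), and the call was lost without control replicate 2 or 3 or any 1 of the NCOA4 siRNA replicates. Bnip3, a mitophagy receptor, was 271, 309 and 270.4 TPM in control and 235, 227 and 229 TPM in NCOA4 siRNA libraries. The knockdown values were close together, and control replicate 2 stood above the other controls. The log2 fold change was -0.30 (SE 0.0586, limma adjusted p = 0.0363), and the call was lost without control replicate 3 or any 1 of the NCOA4 siRNA replicates. Exons of opposite-strand genes covered 19.8% of the Fam162a exons (Wdr5b, 2.27 TPM in control) and 22.3% of the Bnip3 exons (Gm45507, at 0 TPM in control). Bnip3l, the related receptor, was 87.3 ± 8.94 and 71.5 ± 3.81 TPM (-0.28 on the log2 scale, limma adjusted p = 0.0979), without overlap of the groups but not called. Pdk1, the kinase that shuts pyruvate out of the citric acid cycle, was 84.4 ± 8.59 and 79.4 ± 3.10 TPM (-0.08 on the log2 scale, 95% interval -0.27 to 0.10, limma adjusted p = 0.585).

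Of the 3 members listed under glycogen, 2 fell (66.7%, beside 2.31% of all tested genes). Gys1, the glycogen synthase of most tissues outside liver, was 51.1, 53.7 and 56.4 TPM in control and 39.8, 37.4 and 39.3 TPM in NCOA4 siRNA libraries. The gap between the groups was wider than the spread within either. The mean was 72.2% of control, with a log2 fold change of -0.46 (SE 0.0523, limma adjusted p = 0.00686). Exons of the opposite-strand gene Ruvbl2 (206 TPM in control and 190.1 TPM in NCOA4 siRNA libraries) covered 6.47% of its exon bases. Gbe1, the enzyme that adds branches to glycogen, was 23.9, 22.2 and 22.2 TPM in control and 19.4, 17.5 and 18.8 TPM in NCOA4 siRNA libraries. The groups were separate but closer than those of Gys1. The log2 fold change was -0.29 (SE 0.061, limma adjusted p = 0.0446), and the call was lost when any single library was left out. Pgm2, a phosphopentomutase of the phosphoglucomutase family, was 46.6 ± 3.98 and 46.8 ± 2.22 TPM (0.01 on the log2 scale, 95% interval -0.16 to 0.18, limma adjusted p = 0.962), and its sign was not stable across alternatives. Pgm1, which is no member and was looked up after its family's values were seen, links glycogen to glucose 6-phosphate and fell from 299 ± 8.51 to 251 ± 5.86 TPM (-0.25 on the log2 scale, limma adjusted p = 0.0188, called in 9 of the 16 alternatives and not without control replicate 2 or 3 or any 1 of the NCOA4 siRNA replicates). Of 8 other glycogen genes, all tested, 0 fell and 1 rose (12.5%, beside 3.11% of all tested genes). That gene was Pygl, a glycogen phosphorylase that breaks glycogen down, from 19.2 ± 1.56 to 24.2 ± 0.778 TPM (0.33 on the log2 scale, limma adjusted p = 0.047). This call was kept in 8 of the 16 alternatives, with limma adjusted p up to 0.168, and was lost without control replicate 2 or 3 or any 1 of the NCOA4 siRNA replicates.

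Among the 6 tested HIF targets of other functions, 1 fell (16.7%, beside 2.31% of all tested genes) and 0 rose. The median log2 fold change was -0.14. Ndrg1, a stress-responsive gene strongly induced by hypoxia and by iron chelation, was 238, 245 and 245 TPM in control and 189, 181 and 176 TPM in NCOA4 siRNA libraries. Every knockdown library was well below the lowest control, and the controls agreed closely. The mean was 75.1% of control, with a log2 fold change of -0.41 (SE 0.0398, limma adjusted p = 0.00418). Cited2, a feedback inhibitor that competes with HIF-1α for its coactivator, was 84.2 ± 10.1 and 64.1 ± 2.55 TPM (-0.39 on the log2 scale, limma adjusted p = 0.0577), with separate groups but not called. Vegfa, the angiogenic growth factor and a textbook HIF target, was 20.02 ± 0.901 and 18.4 ± 0.331 TPM (-0.12, 95% interval -0.25 to 0.01, limma adjusted p = 0.275). Ddit4 (REDD1, an inhibitor of mTORC1) had the next highest log2 fold change after Eno3, 0.33, but its libraries were 92.8, 112 and 129.8 TPM in control and 144, 127 and 146 TPM in NCOA4 siRNA, with overlapping groups (limma adjusted p = 0.179). Ankrd37 and Mxi1, a repressor of MYC targets, were at -0.15 (limma adjusted p = 0.149) and -0.13 (limma adjusted p = 0.332).

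Of 110 genes in the 8 related lists, those of oxygen sensing, transporters and glycogen above included, 86 were tested, 7 fell (8.14%, beside 2.31% of all tested genes) and 2 rose (2.33%, beside 3.11%), with a median log2 fold change of -0.02. The citric acid cycle (16 of 16 tested, median -0.03) and the pentose phosphate pathway (8 of 8 tested, median 0.02) held 0 called genes. The 8 tested of 17 other glycolytic isozymes likewise held 0. At an unadjusted p under 0.05 the 3 lists held 1, 2 and 2 genes (limma), beside 21.6% of all tested genes. All 3 knockdown values were below all 3 controls in 25%, 37.5% and 37.5% of their tested genes, beside 11.8% of all tested genes. They were above in 1, 0 and 0 genes, beside 16.6% of all tested genes. In the list of pyruvate entry into mitochondria, 12 of 13 genes were tested. Pdhb, the β subunit of pyruvate dehydrogenase, fell from 125 ± 4.47 to 101 ± 1.13 TPM (-0.30 on the log2 scale, limma adjusted p = 0.0108), and Pdha1, the α subunit, rose from 73.3 ± 2.69 to 85.2 ± 2.58 TPM (0.22, limma adjusted p = 0.0432). The Pdhb call was kept in 12 of the 16 alternatives and lost without any 1 of the NCOA4 siRNA replicates. The Pdha1 call was kept in 7, with limma adjusted p up to 0.168, and was lost without any 1 library other than control replicate 2. Of 26 other HIF-induced genes, 20 were tested, 4 fell, 0 rose, and the median log2 fold change was -0.10. Of these 4, Jmjd6, an iron-dependent oxygenase, went from 79.3 ± 0.702 to 63.2 ± 1.38 TPM (-0.33, limma adjusted p = 0.00704), P4ha2, a collagen prolyl hydroxylase, from 15.6 ± 0.981 to 11.4 ± 0.396 TPM (-0.44, limma adjusted p = 0.0184), and Bhlhe40, a transcriptional repressor, from 69.7 ± 3.09 to 59.6 ± 1.77 TPM (-0.22, limma adjusted p = 0.047). The calls of Jmjd6, P4ha2 and Bhlhe40 were kept in 14, 11 and 5 of the 16 alternatives. That of Jmjd6 was lost without NCOA4 siRNA replicate 2, that of P4ha2 without control replicate 3 or any 1 of the NCOA4 siRNA replicates, and that of Bhlhe40 when any single library was left out. Whether the share of calls differs between the members and these lists was not tested.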

How the data were processed

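Total RNA of J774 cells was isolated, and stranded poly(A) libraries (TruSeq) were sequenced in pairs. Per the submitters' processing notes, reads were trimmed with Trimmomatic (0.33), checked with FastQC, aligned with HISAT2 (2.1.0) to mm10 and counted with featureCounts, and the study tested counts with edgeR. The authors deposited TPM per gene and library, with no scaling between libraries. The raw counts were not used here, and how reads with several matches were counted is not given in the sources used here.

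Genes took names, positions and exon lengths from GENCODE M21 (GRCm38). Genes with a mean of at least 0.5 TPM were compared by a two-sided limma fit (3.58.1, R 4.3.3) of log2(TPM + 0.5) with trended eBayes moderation and Benjamini-Hochberg adjustment over 13829 genes. A fold change on this scale understates the change of low genes. Whole reads were rebuilt from TPM and length (20770 of 21096 genes with a value above 0, tolerance 0.02 reads) for depth and for limma-voom. Copies, exon overlaps and promoter matches were found with Python (3.11.15). In 37 of the 48 member promoter windows, the first 30 bases from the annotated start lay in a GENCODE transcript of the gene. The labels call the libraries biological replicates and say no more of their cultures, so p-values measure the spread between these libraries.

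Named genes are Ncoa4, the members, up to 3 called genes of each related list and cell type markers. Named beyond this rule are Epas1, Egln3, Hif3a and Pgm1, and genes that share sequence or exon bases with a named gene. The members and lists were chosen with earlier results of these data known. The labels do not say whether replicate numbers pair the libraries, and the numbers were not treated as pairs. The script was tried on simulated data, in which no library was made to stand apart as control replicate 1 did here. Results were recomputed under 15 settings (a pseudocount of 1 or 0.1, genes unfiltered or at 5 TPM or more, median centring, quantile normalization, no trend, limma-voom, a replicate block and each library left out). Removal of the mitochondrial genome's genes was added after seeing the data.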

Additional observations from a re-analysis of the deposited data

How the results depend on the processing

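Of 592 log2 fold changes of members under the 16 alternatives, 584 kept their sign, and the median of the members was below 0 in each. It moved most, to -0.26, with median centring. The 8 reversals were in Vhl (-0.0240 without control siRNA replicate 1, with 0.1486 as its highest value when a library was left out) and in Pgm2 (-0.0498 with median centring, -0.0106 with quantile normalization, -0.0064 without the mitochondrial genome, and -0.0253, -0.0272, -0.0198 and -0.0021 without control siRNA replicate 2 or 3 or NCOA4 siRNA replicate 1 or 3, with up to 0.0769 when another library was left out), neither of which was called. Members that fell numbered 13, and 7 without a filter, 21 with median centring, 6 without a trend, 20 with limma-voom and 4 to 19 with a library left out. Members that rose numbered 1, and 3 with limma-voom (Eno3, Aldoc and Ddit4) and 0 to 1 with a library left out. Past the 1.5-fold threshold as well, 1 member rose, and 0 to 1 with a library left out. Among all tested genes, 430 rose, and 281 without a filter, 260 without a trend, 940 with limma-voom and 77 to 437 with a library left out, while 320 fell, and 622 with median centring, 144 without a trend, 545 with limma-voom and 50 to 370 with a library left out. In the related lists 2 genes rose, and 0 without a filter, 1 with median centring, 0 without a trend and 0 to 1 with a library left out, while 7 fell, and 4 without a filter, 13 with median centring, 3 without a trend and 0 to 9 with a library left out. The cause of these differences was not tested.

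The replicate numbers were not treated as pairs. The correlations between same-numbered libraries' deviations from their group means were 0.028, -0.019 and 0.023. Between differently numbered libraries they ran from -0.041 to 0.020. With 3 libraries per group, these values cannot decide whether the cultures were paired. With the replicate number as a block, 4 members fell and 1 rose, so that 9 of the 14 calls were lost (Hif1a, Hk1, Tpi1, Eno1, Eno2, Pkm, Bnip3, Fam162a and Gbe1). Over all tested genes 94 rose and 67 fell with the block, and in the related lists 0 rose and 0 fell (limma, with 4 higher and 14 lower at an unadjusted p under 0.05).

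The tested members averaged over 10 TPM each, whereas a change in Adm was not detectable at 1 to 4 reads per library. The Gapdh and Eno1 rows held 1.39% and 36.9% of the TPM of their families, so their values depend on how shared reads were assigned. The same can hold for other members with copies, such as Pgk1, Pgam1 and Pkm, whose rows held at least 84.1%.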
